A study of Mus musculus with 6 samples.

Results

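The 10 genes described here are *Mx1*, *Mx2*, *Ifitm1*, *Ifitm2*, *Ifitm3*, *Ifitm6*, *Bst2*, *Rsad2*, *Cmpk2* and *Samhd1*. They were chosen by name as viral restriction factors and their close partners, and all 10 have a row among the 22248 genes of the expression table. RNAseq was performed on bone-marrow-derived macrophages (BMDMs), which are macrophages grown from bone marrow cells with macrophage colony-stimulating factor. The control group is 3 libraries from *Lyz2cre* mice, which carry Cre recombinase at the *Lyz2* locus, and the CITED2-deficient group is 3 libraries from *Cited2 fl/fl:Lyz2cre* mice, which carry the same Cre and 2 floxed alleles of *Cited2*. Both groups are on a C57BL/6 background, are labelled as 10 weeks of age (the methods of the study give a younger age) and were left unstimulated. Cre is thus present in the controls too, and the deletion is limited to cells that express *Lyz2*, the lysozyme gene of myeloid cells. Values given below are FPKM, that is fragments per kilobase of transcript scaled to library size. P-values come from limma on log2(FPKM + 1) across the 11687 genes whose mean FPKM reached 1, adjusted by the Benjamini-Hochberg method with 0.05 as the threshold.

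Restriction factors are host proteins that block a step of viral growth, and most of them are switched on by interferon. In that pathway, interferon binds its receptor, receptor-bound kinases activate transcription factors, and these bind interferon-stimulated response elements in promoters. Mx proteins are dynamin-like GTPases that trap viral nucleocapsids, IFITM proteins sit in membranes and hinder viral fusion, BST2 (tetherin) holds budding virions at the cell surface, RSAD2 (viperin) and CMPK2 work together to make a chain-terminating nucleotide, and SAMHD1 breaks down the dNTPs that reverse transcription needs.

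*Cited2* itself averaged an FPKM of 75.5 ± 3.79 over control libraries against 8.01 ± 1.10 over CITED2-deficient ones (SD, n = 3 each), so the libraries matched their labels. The depth recovered from the FPKM steps was 17289283 to 26100414 fragments, and the CITED2-deficient libraries were on average 1.34 times as deep. Over all tested genes, 16.7% were called higher and 34.6% lower in CITED2-deficient BMDMs, 51.3% in all, and the median log2 fold change was -0.10. Macrophage markers summed to an FPKM of 5818 to 5889 in control libraries and 5472 to 5555 in CITED2-deficient libraries. Of these 9 markers 5 were lower and 1 was higher. *Lyz2*, which holds the Cre, fell from 31.3 ± 1.03 to 9.75 ± 0.333 (SD, n = 3 each), *Itgam* was lower by a log2 fold change of -0.81, and *Fcgr1* was higher at 1.48. The control mean of *Lyz2* was the lowest of the 9 markers, against 1654 for *Cd68*, and this low level was not explored.

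Of the 10 genes, 7 were higher in CITED2-deficient BMDMs, 2 were lower and 1 did not pass the threshold. The 7 higher genes were *Rsad2*, *Cmpk2*, *Mx1*, *Mx2*, *Bst2*, *Ifitm3* and *Samhd1*, with ratios of mean FPKM from 10.8 down to 1.84. *Ifitm1* and *Ifitm2* were lower, and *Ifitm6* did not pass. Read against the background, 7 of 10 were called higher where 16.7% of all tested genes were, and 2 of 10 were called lower where 34.6% were. All 7 higher genes had every CITED2-deficient library above every control library, a separation found for 19% of tested genes. Both lower genes had every CITED2-deficient library below every control library, against 40.9% of tested genes. With a fold of at least 2 also required, 5 of the 10 were higher where 3.72% of tested genes were, and 0 were lower where 1.54% were. After median-ratio scaling, which centres the typical gene near no change, the counts stayed at 7 and 2 against 23.1% and 21.3% of tested genes. Summed over the 10 genes, FPKM was 1806 to 1854 in control libraries and 3510 to 3733 in CITED2-deficient libraries. In bulk RNA, more cells that express a gene and more RNA per cell cannot be told apart.

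**Figure D1:**
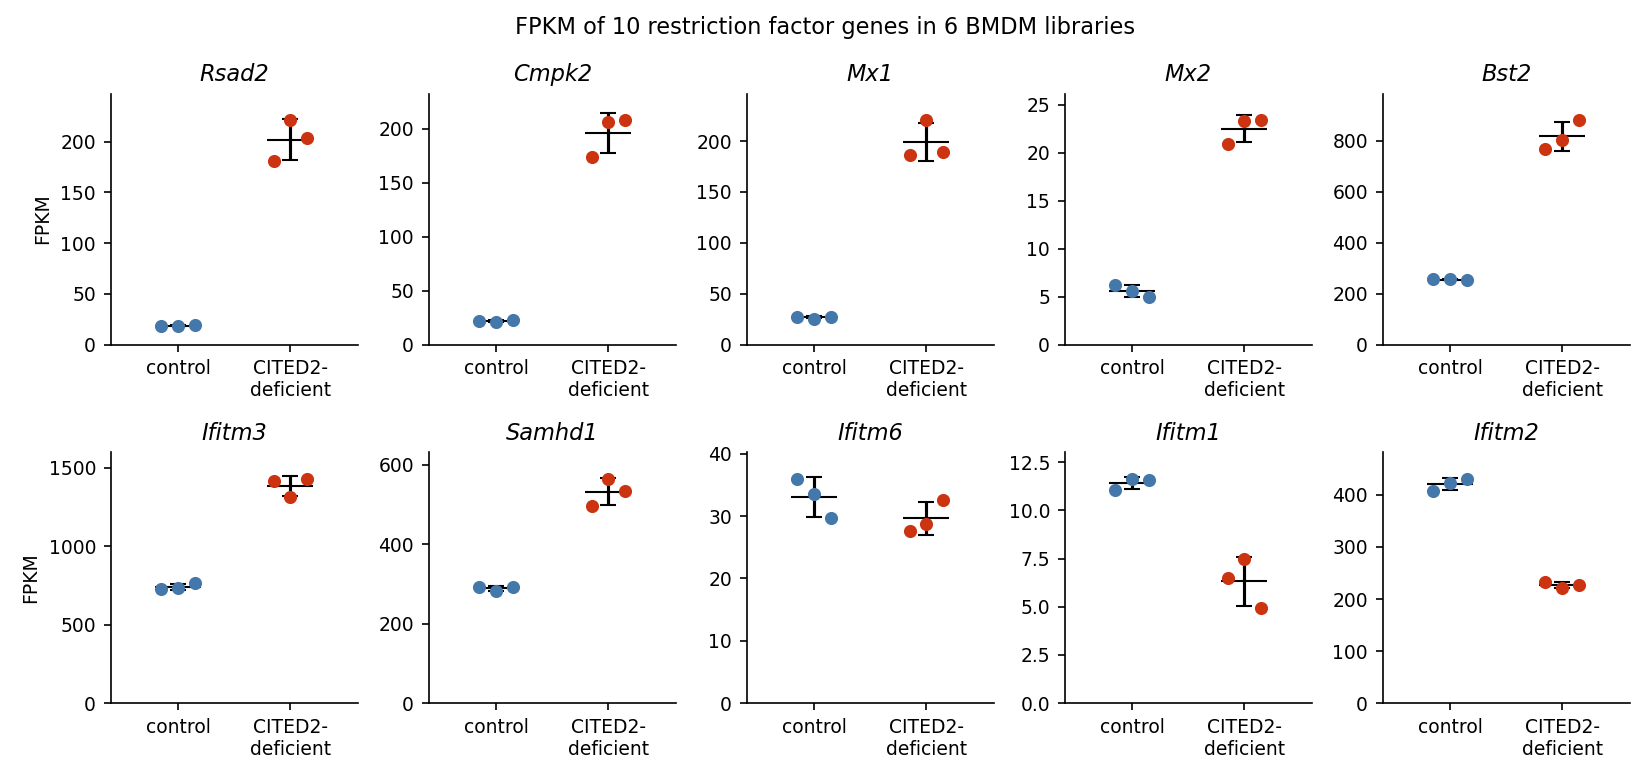
FPKM (vertical axes, from 0) of each of the 10 genes in the 3 control (blue) and 3 CITED2-deficient (red) BMDM libraries, with the group mean and SD as black bars. The groups separate upward for 7 genes and downward for *Ifitm1* and *Ifitm2*, and overlap for *Ifitm6*.

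The pair *Rsad2* and *Cmpk2* had the largest changes of the 10 genes. The genes are neighbors on chromosome 12 of mm10, with *Rsad2* (ENSMUSG00000020641) on the minus strand from 26442746 to 26456452 and *Cmpk2* (ENSMUSG00000020638) on the plus strand from 26469204 to 26479837. They point away from each other across a gap of 12.8 kb. *Rsad2*, a radical-SAM enzyme, had an FPKM of 18.0, 18.8 and 19.2 in the control libraries (replicates 1, 2 and 3, the order used throughout) and 181, 221 and 204 in the CITED2-deficient libraries. The control libraries lay close together, and all 3 CITED2-deficient libraries stood far above them. Its log2 fold change was 3.36 (SE 0.07, limma adjusted p = 1.13e-09), which ranked 16 from the top of all tested genes. *Cmpk2*, a mitochondrial nucleotide kinase, had an FPKM of 22.02, 20.7 and 22.6 in control libraries and 174, 206 and 208 in CITED2-deficient libraries. Its log2 fold change was 3.11 (SE 0.07, limma adjusted p = 1.77e-09), at rank 26. The groups were again fully separated, with replicate 1 the lowest of the CITED2-deficient libraries for both genes.

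The 2 genes rose by similar amounts. The FPKM ratio of *Rsad2* to *Cmpk2* within a library was 0.816, 0.910 and 0.847 in control BMDMs and 1.04, 1.07 and 0.981 in CITED2-deficient BMDMs, so *Rsad2* gained slightly more in every library. The difference was 0.26 on the log2 scale (exact permutation p = 0.1, two-sided, the smallest that 3 against 3 libraries allow). The only other tested gene within 300 kb of the pair was *Rnf144a*, which was higher by 0.45 on the log2 scale (limma adjusted p = 0.0266).

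*Mx1* and *Mx2* lie 72.4 kb apart on chromosome 16, *Mx1* (ENSMUSG00000000386) on the minus strand from 97447035 to 97462907 and *Mx2* (ENSMUSG00000023341) on the plus strand from 97535308 to 97560900. Many inbred mouse strains carry *Mx* alleles that make no working protein, and GENCODE vM21 lists *Mx2* as a polymorphic pseudogene, so RNA here does not stand for an active protein. *Mx1* had an FPKM of 27.6, 25.7 and 27.3 in control libraries and 187, 220 and 189 in CITED2-deficient libraries. This is a 7.40-fold ratio of means, with a log2 fold change of 2.84 (SE 0.06, limma adjusted p = 1.88e-09). *Mx2* was the less abundant gene, at 6.19, 5.61 and 4.94 in control libraries and 20.9, 23.3 and 23.3 in CITED2-deficient libraries. Its ratio of means was 4.03 and its log2 fold change 1.84 (SE 0.08, limma adjusted p = 2.01e-07).

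The *Mx* genes did not rise in step. *Mx1* stood at 4.45, 4.57 and 5.53 times the level of *Mx2* in control libraries and at 8.94, 9.45 and 8.12 times in CITED2-deficient libraries. These ratios did not overlap between the genotypes, and their mean difference was 0.87 on the log2 scale (exact permutation p = 0.1, the smallest possible). Of the 50-base stretches in annotated *Mx2* transcripts, 4.38% also occur in *Mx1*, so a small share of fragments could be assigned to either gene. The 2 other tested genes within 300 kb, *Prdm15* (0.21) and *C2cd2* (-0.0075), did not pass the threshold.

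**Figure D2:**
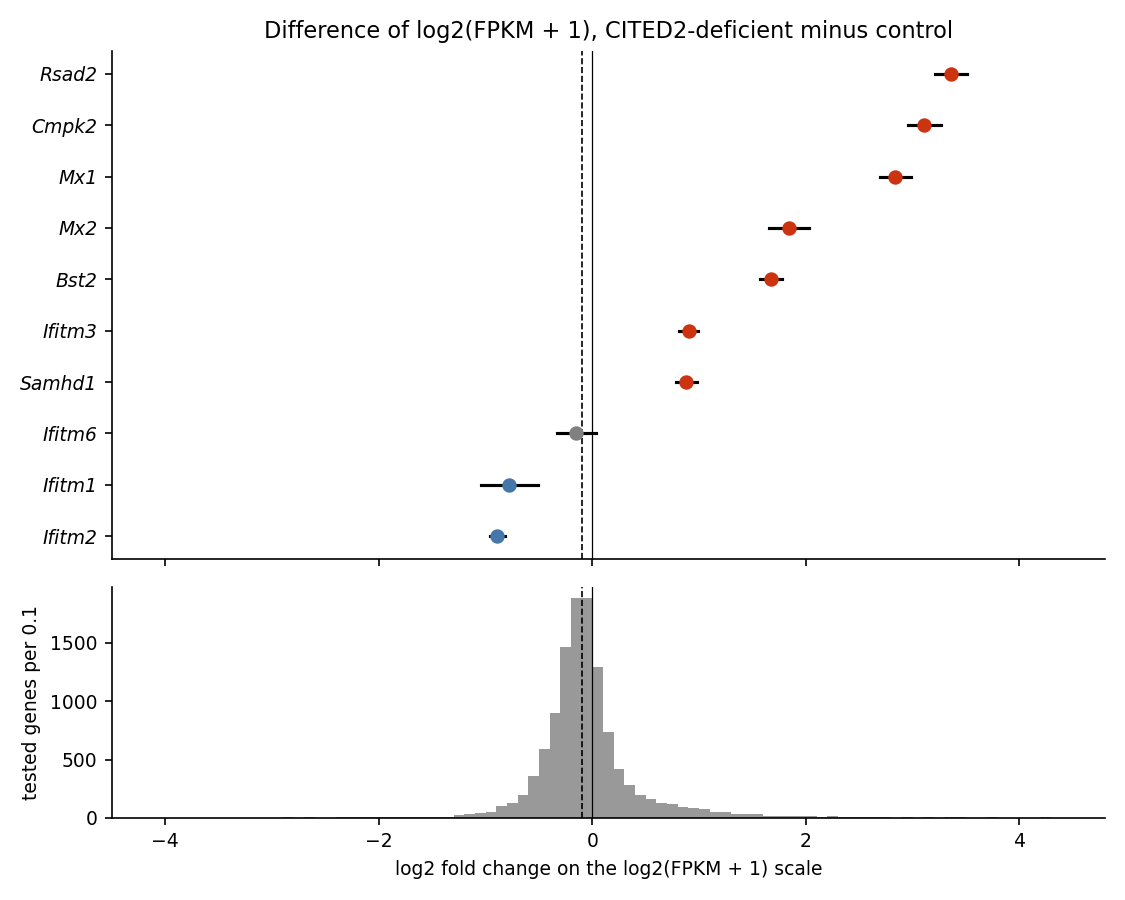
Log2 fold change of each of the 10 genes on the log2(FPKM + 1) scale with its 95% interval (upper panel; red higher, blue lower, gray not past the threshold), above the distribution of all 11687 tested genes (lower panel, genes per 0.1 log2 unit). The dashed line is the median of all tested genes, -0.10. *Rsad2*, *Cmpk2* and *Mx1* lie in the far right tail, and *Ifitm1* and *Ifitm2* lie on the left.

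*Bst2* (ENSMUSG00000046718, chromosome 8, 71534255 to 71537456, minus strand) was already abundant in control BMDMs. Its FPKM was 259, 256 and 252 in control libraries and 768, 803 and 880 in CITED2-deficient libraries. The log2 fold change was 1.67 (SE 0.05, limma adjusted p = 7.64e-09), at rank 144 from the top. The control libraries differed by little, and the rise was far larger than the spread between CITED2-deficient libraries.

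*Samhd1* (ENSMUSG00000027639, chromosome 2, 157097533 to 157135265, minus strand) had an FPKM of 292, 283 and 291 in control libraries and 498, 565 and 535 in CITED2-deficient libraries. The groups did not overlap, and the log2 fold change was 0.88 (SE 0.04, limma adjusted p = 3.81e-07). *Samhd1* thus had the smallest rise of the 7 genes, at rank 542, next to *Ifitm3* at rank 527. The 95% intervals of these neighbors overlap (0.78 to 0.98 and 0.82 to 0.99).

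The *Ifitm* genes lie within 63.1 kb of chromosome 7, in the order *Ifitm2* (ENSMUSG00000060591, 140954837 to 140955987), *Ifitm1* (ENSMUSG00000025491, 140967221 to 140969825), *Ifitm3* (ENSMUSG00000025492, 141009586 to 141010770) and *Ifitm6* (ENSMUSG00000059108, 141015699 to 141017924). *Ifitm1* is on the plus strand and the others are on the minus strand. The cluster did not move as a unit. *Ifitm3*, which acts on viruses that enter through endosomes, was the most abundant of the 10 genes, at 726, 732 and 764 in control libraries and 1415, 1312 and 1429 in CITED2-deficient libraries. It rose by a log2 fold change of 0.90 (SE 0.04, limma adjusted p = 1.15e-07), and no library of either group came near the other group.

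*Ifitm2*, a close relative of *Ifitm3*, went the other way. Its FPKM was 408, 424 and 431 in control libraries and 233, 221 and 227 in CITED2-deficient libraries, with a log2 fold change of -0.89 (SE 0.03, limma adjusted p = 3.95e-08). The fall took every CITED2-deficient library well below every control library. *Ifitm1*, which acts mainly at the cell surface, was scarce, at 11.1, 11.6 and 11.6 in control libraries and 6.50, 7.502 and 4.96 in CITED2-deficient libraries. It fell by 0.78 on the log2 scale (SE 0.12, limma adjusted p = 0.000552). These values rest on 146 to 159 fragments in control libraries and 94 to 123 in CITED2-deficient libraries, the fewest of the 10 genes. *Ifitm6*, which is found in myeloid cells, was at 36.0, 33.5 and 29.6 in control libraries and 27.6, 28.7 and 32.6 in CITED2-deficient libraries. The groups overlapped and the log2 fold change of -0.15 did not pass (95% interval -0.33 to 0.031, limma adjusted p = 0.147). Without control replicate 3 it passed as lower, at -0.23 (limma adjusted p = 0.0420, with a range of 0.0420 to 0.645 over all alternatives).

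The balance between *Ifitm2* and *Ifitm3* is free of the scaling between libraries. *Ifitm2* was at 0.562, 0.579 and 0.563 of the FPKM of *Ifitm3* in control libraries and at 0.164, 0.169 and 0.159 in CITED2-deficient libraries. The ratios within a genotype were nearly constant, and the log2 difference was -1.79 (exact permutation p = 0.1, the smallest possible). The ratio of *Ifitm6* to *Ifitm3* also fell, from 0.0447 ± 0.00547 to 0.0214 ± 0.00171 (SD, n = 3 each, exact permutation p = 0.1). The *Ifitm* genes resemble each other and several pseudogenes. Of the 50-base stretches of the annotated *Ifitm2* transcript, 48.5% occur in transcripts of another gene, chiefly the overlapping same-strand gene model *Gm45717* (36.1%) and the processed pseudogene *Gm11951* (14.9%), and 3.30% occur in *Ifitm3*. *Gm11951* had an FPKM of at most 0.365 in any library. No row of the expression table carries the name *Gm45717*, so its level is not given. For *Ifitm3* 10.0% of the stretches were shared, for *Ifitm1* 5.02%, and for *Ifitm6*, *Bst2*, *Rsad2* and *Cmpk2* 0%. How such fragments were assigned is not stated in the methods read here, and *Ifitm2* had the largest shared portion of the 10 genes.

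**Figure D3:**
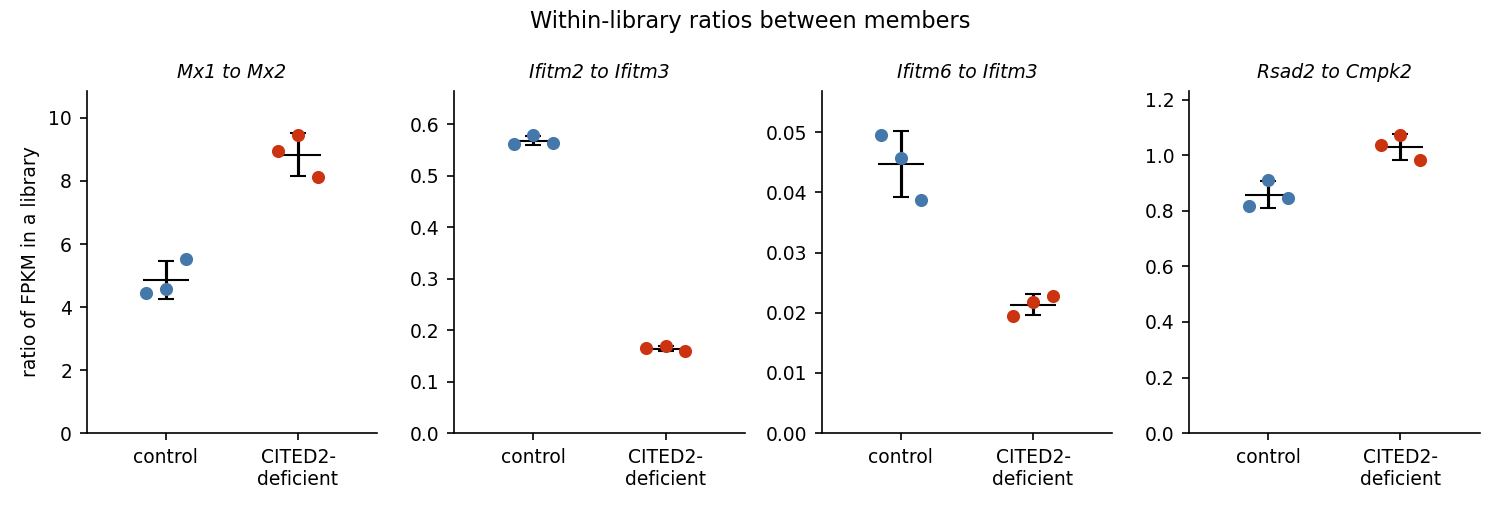
Ratio of FPKM between 2 genes within each library (vertical axes, from 0), for 3 control (blue) and 3 CITED2-deficient (red) libraries with mean and SD. The *Mx1* to *Mx2* ratio is higher and both *Ifitm* ratios are lower in all CITED2-deficient libraries, while the *Rsad2* to *Cmpk2* ratio shifts little.

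Around the *Ifitm* cluster, 14 other genes within 300 kb were tested, of which 3 were higher, where 16.7% of all tested genes were, and 3 were lower, where 34.6% were. Their median log2 fold change was -0.060, close to that of all genes. The exception in size was *Irf7* (3.46), an interferon regulatory factor that lies in this window. *Rnh1* (0.61) and *Pgghg* (0.20) were the other higher genes, and *Ric8a* (-0.37), *Lrrc56* (-0.37) and *Bet1l* (-0.23) were the lower ones. The windows of 300 kb, and so the neighbors named for all 3 regions, were chosen after the values of the 10 genes had been seen.

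**Figure D4:**
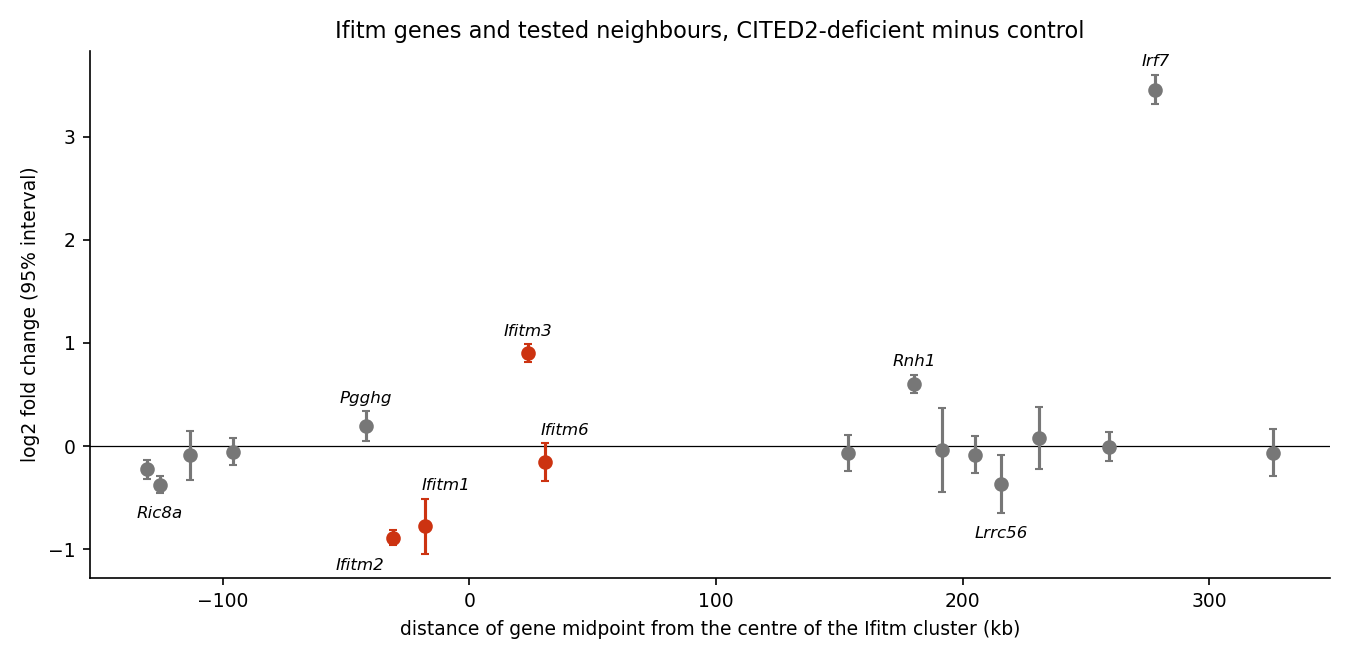
Log2 fold change with its 95% interval (vertical axis) against the distance of each gene's midpoint from the centre of the *Ifitm* cluster in kb (horizontal axis), for the 4 *Ifitm* genes (red) and 14 tested neighbors (gray). *Ifitm1* and *Ifitm2* lie below 0, *Ifitm3* above, *Ifitm6* near 0, and *Irf7* is the single neighbor with a large rise.

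The order of levels among the 10 genes changed with genotype. In control BMDMs the mean FPKM descended from *Ifitm3* (741 ± 20.6) over *Ifitm2* (421 ± 11.5), *Samhd1* (289 ± 5.17) and *Bst2* (256 ± 3.34) to *Ifitm6* (33.0 ± 3.20), *Mx1* (26.8 ± 1.02), *Cmpk2* (21.8 ± 1.01), *Rsad2* (18.6 ± 0.612), *Ifitm1* (11.4 ± 0.301) and *Mx2* (5.58 ± 0.630), each SD over 3 libraries. In CITED2-deficient BMDMs *Bst2* (817 ± 57.3) and *Samhd1* (532 ± 33.6) stood above *Ifitm2* (227 ± 5.62). *Rsad2* (202 ± 20.05), *Mx1* (199 ± 18.7) and *Cmpk2* (196 ± 18.8) had reached about the same level, and they did not differ from each other beyond their spread. FPKM divide by the mean length of a gene's annotated transcripts, so levels of different genes depend on that annotation.

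Promoter windows from RefSeq (GRCm38.p6, the assembly of mm10), from 250 bases before to 50 bases after the start, were found for 8 of the 10 genes and not for *Mx1* and *Mx2*. Positions are counted from the RefSeq start, which can differ from the end of the GENCODE gene span given above. The window of *Ifitm6* lies inside its GENCODE span. They were searched on both strands for the core of the interferon-stimulated response element, GAAA followed by any 2 bases and GAAA again. A match was present for 4 of the 8 genes (*Rsad2*, *Bst2*, *Ifitm3* and *Ifitm2*), against 3.99% of 27025 mouse genes with such windows (3.44% of 32851 windows of the same length). The stretches that hold it are printed below, 5′ to 3′ on the strand of the gene, with the matching bases in capitals, to show that genes that rose and a gene that fell both carry it.
*Rsad2* (chr12:26456538-26456597, minus strand): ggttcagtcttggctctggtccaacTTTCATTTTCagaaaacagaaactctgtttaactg
*Bst2* (chr8:71537563-71537622, minus strand): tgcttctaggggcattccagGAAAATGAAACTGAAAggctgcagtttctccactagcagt
*Ifitm2* (chr7:140955988-140956027, minus strand): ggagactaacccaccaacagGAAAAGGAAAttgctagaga
*Ifitm3* (chr7:141010714-141010743, minus strand): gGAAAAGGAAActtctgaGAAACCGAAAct

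The match in *Rsad2* reads on the opposite strand and begins at -120 from the start. *Bst2* holds 2 overlapping matches, at -130 and -124. *Ifitm3* holds 2 separate matches just after the start, at 3 and 20, and the first of them has the same letters as the single match of *Ifitm2* at -46. No match was found in the windows of *Cmpk2*, *Samhd1*, *Ifitm1* and *Ifitm6*, which says only that these letters are absent there. The gamma-activated site TTCNNNGAA, an element of interferon gamma targets, was found for *Bst2*, *Ifitm3*, *Ifitm6* and *Samhd1*, against 9.55% of all genes with windows (8.30% of all windows). In *Bst2* and *Ifitm3* it overlaps a response element match.

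Other restriction factors moved in both directions. From a list of 20 such genes, 19 were tested, of which 11 were higher, 5 were lower and 3 did not pass, with a median log2 fold change of 0.20. Of all tested genes 16.7% were higher and 34.6% were lower, and their median was -0.10. *Isg20*, an exonuclease of viral RNA, had the largest rise on the log2(FPKM + 1) scale, 2.79, with 4.0 ± 0.793 FPKM in control libraries and 33.4 ± 3.05 after deletion (SD, n = 3 each, limma adjusted p = 1.28e-07). *Ly6e*, a surface protein that blocks entry of coronaviruses, rose from 564 ± 23.2 to 2237 ± 38.8 (1.99, limma adjusted p = 7.22e-10). *Mov10*, an RNA helicase (1.43), and *Ch25h*, which makes 25-hydroxycholesterol (1.28), followed. *Ch25h* was barely present in control BMDMs, at about 4 to 7 recovered fragments, and this scale understates its change: the ratio of mean FPKM was 9.64 for *Ch25h* and 8.34 for *Isg20*. Of the lower genes *Serinc3*, which is packed into retroviral particles and lowers their infectivity, had the largest fall, from 1160 ± 10.2 to 570 ± 12.0 (-1.02, limma adjusted p = 4.32e-09), and was chosen after its values had been seen.

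Genes of interferon signaling were measured beside their targets. Of 19 listed genes, 16 had a row and 15 were tested, of which 8 were higher, 5 were lower and 2 did not pass, with a median log2 fold change of 0.29. The shares over all tested genes were 16.7% higher and 34.6% lower, so the lower count is near its share. The rises included *Irf7* at 3.46, *Usp18*, a brake on the receptor, at 2.30, and the transcription factor genes *Stat2* at 2.10 and *Irf9* at 0.67. The receptor genes *Ifnar1* (-0.27) and *Ifnar2* (-0.30) were among the lower genes, as was *Ifngr1* (-0.92). After median-ratio scaling these values were -0.17, -0.20 and -0.82. *Ifnb1*, the gene of interferon beta, was below the filter, with 0 fragments in each control library and 5, 2 and 5 in CITED2-deficient libraries.

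Genes that supply dNTPs, the substrate of SAMHD1, or that encode or drive the cell cycle kinases that phosphorylate it were listed too. Of 14 tested genes, 2 were higher and 4 were lower, near the 16.7% and 34.6% of all tested genes, and 8 did not pass. Their median was -0.15. *Dck*, which salvages deoxycytidine, rose by 1.71 on the log2 scale, with 40.5 ± 1.56 FPKM in control libraries and 134 ± 8.60 after deletion (SD, n = 3 each, limma adjusted p = 1.48e-08), and *Ccnd2*, cyclin D2, rose by 1.65. *Tk2*, mitochondrial thymidine kinase (-0.58), and *Nme1*, a nucleoside diphosphate kinase (-0.37), were lower. The cell cycle kinase genes *Cdk1* (-0.37) and *Cdk2* (-0.35) were lower too. After median-ratio scaling *Tk2* and *Cdk2* still passed, while *Nme1* and *Cdk1* did not. The ribonucleotide reductase genes *Rrm1* (-0.14), *Rrm2* (-0.018) and *Rrm2b* (-0.15) did not pass.

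Relatives of the 10 genes by protein family, such as dynamins and other IFITM, radical-SAM and nucleotide kinase genes, gave 0 higher, 3 lower and 5 not called among 8 tested. The lower count is near the 34.6% of all tested genes, and the median of -0.091 is near their -0.10. The lower genes were *Rsad1* (-0.82), *Dtymk* (-0.19) and *Dnm2* (-0.10), of which *Dtymk* and *Dnm2* no longer passed after median-ratio scaling. At an unadjusted p under 0.05 limma also gave 0 higher, as did limma-voom on the recovered fragments at its adjusted threshold, while median-ratio scaling gave 1. *Ifitm5* and *Ifitm10* were below the filter, at means of 0.734 and 0.0551 in control BMDMs and 0.383 and 0.0291 in CITED2-deficient BMDMs.

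**Figure D5:**
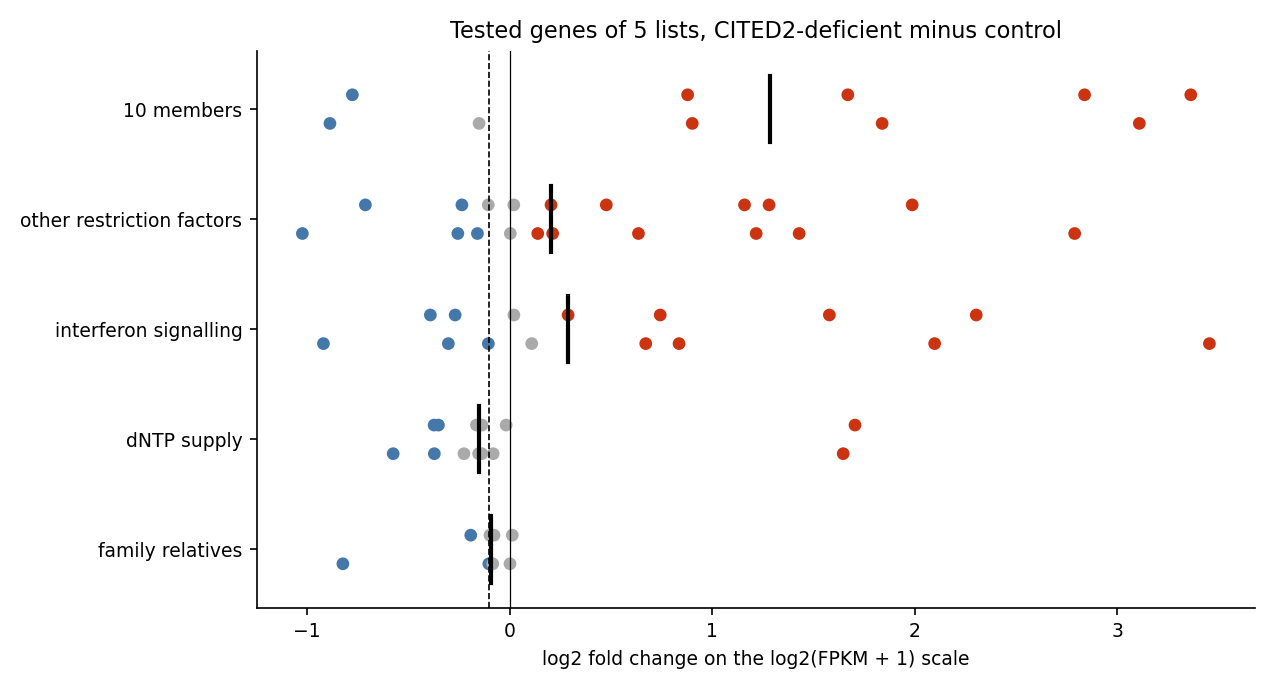
Log2 fold change on the log2(FPKM + 1) scale (horizontal axis) of the tested genes of 5 lists, with a point per gene (red higher, blue lower, gray not past the threshold) and a black bar at the list median. The dashed line is the median of all tested genes, -0.10. The medians are 1.29 for the 10 genes, 0.20 for other restriction factors, 0.29 for interferon signaling, -0.15 for dNTP supply and -0.091 for family relatives.

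Markers of other cell types moved with genotype in part. Their counts stand beside 16.7% higher and 34.6% lower over all tested genes. The 10 fibroblast and stromal markers summed to 44.9 to 54.1 in control libraries and to 554 in CITED2-deficient replicate 1, 180 in replicate 2 and 182 in replicate 3, and all 7 that were tested were higher. None of the 7 restriction factor genes that rose had its highest value in replicate 1, and 6 of them were lowest there. Without that library their log2 fold changes were 3.44 for *Rsad2*, 3.19 for *Cmpk2*, 2.88 for *Mx1*, 1.89 for *Mx2*, 1.71 for *Bst2*, 0.93 for *Samhd1* and 0.89 for *Ifitm3*. The stromal sums of CITED2-deficient replicates 2 and 3 also lay above all controls, and the part of stromal cells in these results was not tested. Of 5 monocyte markers 4 were higher and 1 was lower, with sums of 250 to 288 and 329 to 365. The lower one, *Chil3* (-0.17), had overlapping groups and no longer passed after median-ratio scaling. The part of monocytes in these results was not tested. *Bst2* is also known from plasmacytoid dendritic cells, whose markers summed to 2.28 to 2.99 in control libraries and 1.90 to 2.46 in CITED2-deficient libraries, with *Siglech* at most 0.245. Most of that sum was *Cox6a2* (means 2.19 and 1.59), the only marker of these above the filter, which did not pass the threshold. *Siglech*, *Ccr9*, *Bcl11a* and *Pacsin1* were below the filter, with higher means in CITED2-deficient libraries. The part of these cells in the results was not tested. Sums were 0.671 to 1.00 against 2.84 to 3.68 for dendritic cell markers, 14.2 to 19.3 against 18.4 to 22.8 for B and plasma cell markers, and 0.258 to 0.852 against 0.840 to 1.41 for T and NK cell markers. Neutrophil markers summed to 727 to 796 and 663 to 782, but 5 of the 8 tested were lower and 2 were higher. The granule genes *Mpo* (-2.54), *Elane* (-2.08) and *Camp* (-0.99) were among the lower ones, while *Retnlg* (1.74) and *Ltf* (0.90) were higher, and their part in the results was not tested. No listed marker was at 0 in all libraries.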

How the data were processed

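The authors depleted ribosomal RNA, prepared stranded libraries, mapped reads to mm10 with STAR and deposited gene FPKM from Cuffdiff with the GENCODE annotation, 1 value per gene and library. No source read here gives tool versions or the GENCODE release. The design text names 3 mice per genotype. FPKM are already scaled to length and library size, so strongly changed genes can shift the others. Genes were matched to GENCODE vM21 by ID (22239 of 22248), since 23 symbols had been turned into dates by a spreadsheet. Multiplying FPKM by the mean transcript length and the recovered depth gave whole fragments (tolerance 0.02) in every library for 96.0% of matched genes. The test was limma 3.58.1 (R 4.3.3) with its trend option on log2(FPKM + 1), for genes whose mean FPKM reached 1. This scale understates changes of low genes. P-values measure the spread between 3 libraries per group. The steps were tested on simulated data.

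The 10 genes and all lists were chosen with earlier results of these data known, and counts of called genes carry no set test. Text names all 10 genes, *Cited2*, up to 4 genes per list with the largest change past the threshold, and list genes tied to a member. A gene under this rule is not reported here. *Ifnar1*, *Ifnar2*, *Ifngr1*, *Serinc3*, *Cdk1* and *Cdk2* were added after their values were seen. A wrong alias of *Shfl* was corrected after the values had been seen. Ratios within a library were compared by a two-sided exact permutation test. Shared 50-base stretches were counted over all GENCODE vM21 transcripts. Alternatives were a pseudocount of 0.1, filters of 0 or 5 on the mean FPKM, median-ratio scaling, quantile normalization, no variance trend, a replicate block, limma-voom on recovered fragments, each library left out and a fold of at least 2. Protein sequences were not used here.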

Additional observations from a re-analysis of the deposited data

How the results depend on the processing

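Of 140 alternative values for the 10 genes, 139 kept their direction and side of the threshold, and 9 genes kept both throughout. The exception was *Ifitm6*, which ranged from -0.23 to -0.090 over the libraries left out and passed the threshold as lower without control replicate 3. After median-ratio scaling the split over all genes was 2696 higher and 2490 lower, against 1950 and 4044 as deposited, and the 10 genes still gave 7 higher and 2 lower. With a fold of at least 2 required, 3.72% of all tested genes were called higher and 1.54% lower. Of the 10 genes 5 were then called higher and 0 lower, and other restriction factors gave 6 and 1. Interferon signaling gave 4 higher and 0 lower, and dNTP supply and family relatives 0 lower. The lower calls of other restriction factors were 3 after median-ratio scaling and 3 after quantile normalization. Family relatives gave 1 higher and 1 lower after median-ratio scaling, and 1 lower after quantile normalization or without the variance trend. Genes of dNTP supply gave 2 lower without a filter and 2 after median-ratio scaling. Over the libraries left out, lower calls ranged from 1 to 2 for family relatives (1 without control replicate 1 or 2) and from 2 to 6 for dNTP supply (2 on leaving out any of control replicates 1 and 2 and CITED2-deficient replicates 2 and 3). The cause was not tested. The replicate block changed no call of the 10 genes (*Ifitm6* -0.15, adjusted p = 0.208) and gave 5708 calls over all genes against 5994. Libraries that share a number had correlations of 0.0138, 0.00784 and 0.0402 in their deviations from the group means, and they did not all correlate best with their own number, so the numbers were not taken to pair the mice. With 3 libraries per group an exact p cannot fall below 0.1, and of the 10 genes *Ifitm1* had the fewest fragments.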
